A study of Homo sapiens with 6 samples.

Results

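The immediate early genes and the feedback genes of the ERK pathway were examined in SUM-159 cells that carried an empty vector or SH3GL2. The set held 10 genes, namely FOS, FOSL1, JUN, JUNB, ATF3, EGR1, DUSP1, DUSP4, DUSP6 and SPRY2. Its members were every probe set whose only gene symbol in the platform annotation was one of these, which gave 18 of the 22215 probe sets tested and 10 of the 11963 genes measured by a probe set with 1 symbol. SUM-159 is a triple-negative breast cancer cell line, one that lacks estrogen receptor, progesterone receptor and HER2 amplification. RNA was hybridized to Affymetrix GeneChip Human Genome arrays, 3 from cells stably transfected with SH3GL2 (endophilin A1, a protein that shapes membranes during endocytosis) in pcDNA 3.1 and 3 from cells with the same vector without insert. Both lines were kept under G418 as stable clones, and how many clones each line held is not given in the sources used here. The sources also do not say whether the triplicates were separate cultures, so the p-values measure only the spread between arrays, which may be technical. The study set out to find genes that respond to SH3GL2, and the comparison here asks whether genes that read out MAPK signaling were among them.

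When growth factor receptors are active, RAS, RAF and MEK pass the signal on to the kinase ERK, which switches on a first wave of genes within minutes and without new protein synthesis. That wave includes FOS, JUN and their relatives, which pair to form the transcription factor AP-1, and the zinc finger factor EGR1. The same wave also carries its own brakes, because dual specificity phosphatases (DUSP) remove the activating phosphates from ERK, JNK or p38, and Sprouty proteins dampen the path from receptor to RAS. DUSP6 and SPRY2 are for this reason commonly read as transcripts that follow ERK activity. SH3GL2 takes part in the uptake of growth factor receptors from the cell surface, upstream of this path.

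The array medians were 7.02, 7 and 6.97 on the log2 scale for empty vector and 7, 7.01 and 7.02 for SH3GL2, and any scaling between the arrays by the authors is not given in the sources used here. The transfected gene showed no rise on the arrays labelled SH3GL2. Its only probe set gave log2 signals of 3.24, 3.18 and 3.25 with empty vector and 3.15, 3.33 and 3.29 with SH3GL2, a difference of 0.03 (adjusted p = 0.909). All 6 lay under the median (4.93) of 105 reference probe sets for genes of other organs, and whether this probe set detects the transfected insert is not given in the sources used here. The labels were therefore not borne out by this probe set, although the paper reports stable overexpression of SH3GL2 in SUM-159 cells. SH3GL2 and empty vector stand throughout for the arrays so labelled. A probe set was read as above the reference where a group mean passed the 95th percentile of those reference probe sets, a log2 signal of 7.02. VIM, CD44, CAV1, MSN, AXL and EGFR, 6 of 7 markers of basal and mesenchymal breast lines, were above it, and KRT5 was not. Of 10 markers of breast epithelium, hormone receptors and HER2, ERBB2, GATA3, KRT8 and KRT18 were above it, whereas ESR1, PGR, FOXA1, EPCAM, CDH1 and KRT19 were not. All 6 immune and all 4 endothelial markers lay under it. The summed log2 signal of the 7 basal and mesenchymal markers was 80.33 to 80.37 with empty vector and 79.21 to 79.48 with SH3GL2. Of these, AXL (difference -0.49, adjusted p = 0.00011 from limma) and CAV1 (-0.30, adjusted p = 0.00267) passed as lower. CD44, VIM and MSN were lower without passing, and EGFR (0.06) and KRT5 (0.05) were slightly higher without passing. The part of the summed difference in the results below was not tested.

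In the SH3GL2 cells the ERK phosphatase DUSP6 was higher, and it was the only one of the 10 genes to pass the test. In RNA from whole cultures, more cells that make a transcript and more of it per cell cannot be told apart. Of the 18 probe sets, 2 rose, both of DUSP6, 0 fell and 16 did not pass (limma with Benjamini-Hochberg adjustment over all 22215 probe sets, threshold 0.05). The 2 are 11.1% of the members, beside 4.17% of all probe sets called in either direction, 1.99% called higher and 2.18% called lower. Of the 18, 14 were above the reference, against 50.7% of all probe sets. The part of signal level in these shares was not tested. At an unadjusted p under 0.05, 7 member probe sets were higher, of DUSP6, EGR1, JUNB and DUSP4, and 3 were lower, all of JUN. A one-way analysis of variance gave 0 adjusted calls, with 5 higher and 2 lower at an unadjusted p under 0.05. No share of all probe sets at the unadjusted cut is given here or below, so these counts have no background. The signals of the groups did not overlap for 7 of the 18 (38.9%), against 19.4% of all probe sets. These were the 3 probe sets of DUSP6 and 1 each of JUNB and DUSP4, which were higher with SH3GL2, and 2 of JUN, which were lower. Over the 18, the median log2 difference between the group means (SH3GL2 minus empty vector, with its standard error, SE, given below) was 0.03, beside 0.01 over all probe sets, with 9 positive, 8 negative and 1 at zero. The largest difference, on DUSP6, was 1.42-fold.

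**Figure D1:**
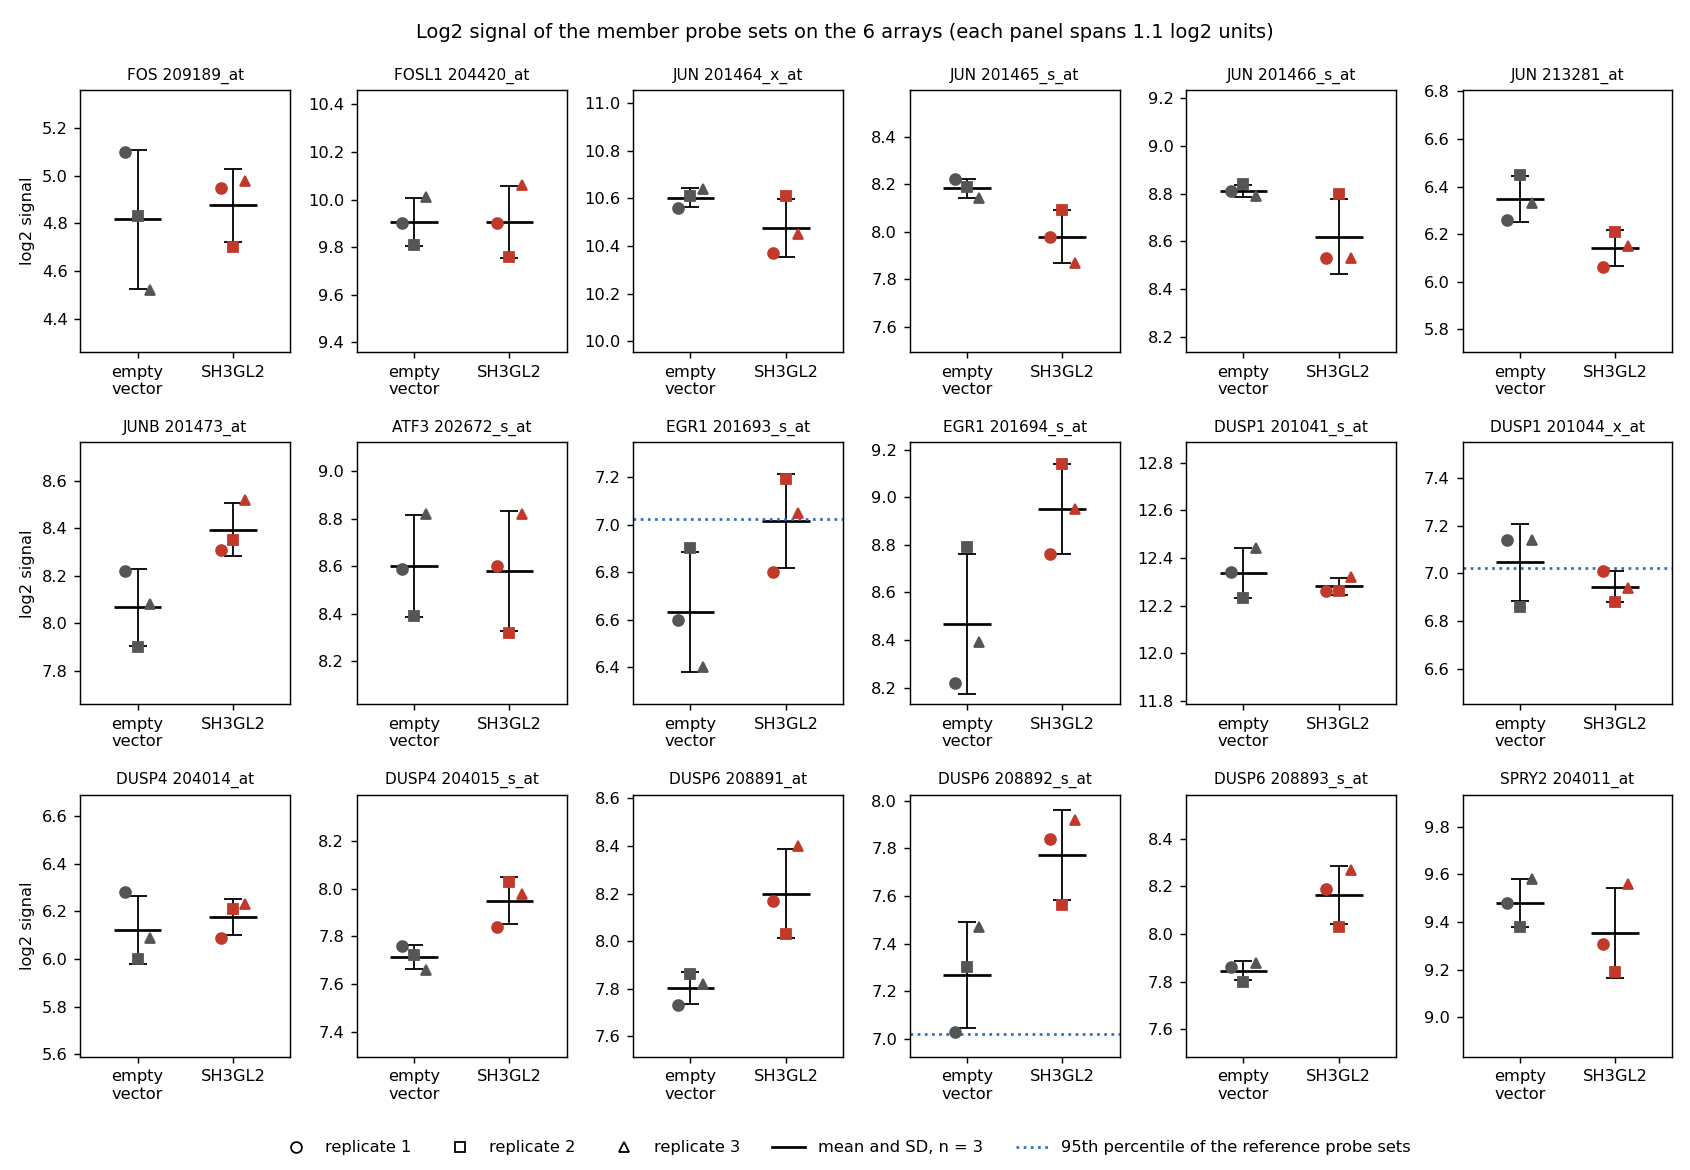
Log2 signal of each of the 18 member probe sets on the 3 empty vector arrays and the 3 SH3GL2 arrays, with 1 panel per probe set and the same span on every y axis. Bars give the mean and SD (n = 3), symbols the replicate number and the dotted line the reference percentile (7.02), drawn where it falls in the panel. The 3 DUSP6 panels show all SH3GL2 arrays above all empty vector arrays, whereas the group means of FOSL1 and ATF3 differ by 0.00 and -0.02.

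DUSP6 encodes a cytoplasmic phosphatase that acts on ERK rather than on JNK or p38. On its first probe set (208891_at) the log2 signals were 7.73, 7.86 and 7.82 with empty vector and 8.17, 8.03 and 8.40 with SH3GL2. The lowest SH3GL2 array was above the highest empty vector array, and the SH3GL2 arrays were spread more widely. The log2 difference was 0.40 (SE 0.10, 1.32-fold, adjusted p = 0.0377 from limma). On the second (208892_s_at) the signals were 7.03, 7.30 and 7.47 against 7.84, 7.56 and 7.92, again with no overlap but with the narrowest gap of the 3 between the groups. Its log2 difference was 0.51 (SE 0.12, 1.42-fold, adjusted p = 0.0349), the largest among the members. On the third (208893_s_at) the signals were 7.86, 7.80 and 7.88 against 8.19, 8.03 and 8.27. The groups were separate here as well, with a log2 difference of 0.32 (SE 0.08, 1.25-fold) that did not pass (adjusted p = 0.0538). It passed without SH3GL2 replicate 2 (0.0220), with a robust prior (0.0416) and among the probe sets brighter than the median (0.0280). With 3 arrays against 3, the two-sided exact permutation test of each of these probe sets gave p = 0.1, the smallest it can give. With the mean of the 3 probe sets taken before the fit, an alternative chosen after the values were seen, DUSP6 had a log2 difference of 0.41 (SE 0.09) and passed over 11963 genes (adjusted p = 0.0265).

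The DUSP6 calls depended on which arrays were used. The call of 208891_at was lost without any 1 of the empty vector arrays, SH3GL2 replicate 1 or SH3GL2 replicate 3 (adjusted p = 0.0840 to 0.196), and that of 208892_s_at without empty vector replicate 1 or 2 or SH3GL2 replicate 1 or 3 (adjusted p = 0.0901 to 0.177). Both calls were also lost with a floor at the median of the reference (adjusted p = 0.211 and 0.265). The floor (4.93) lay under every DUSP6 signal and left the log2 differences unchanged. It could act on these calls only through the variance prior and the adjustment shared with all probe sets. Both calls were lost as well with eBayes without an intensity trend (0.0765 and 0.0798) and in the analysis of variance (0.297 and 0.348). The direction held throughout, and over all alternatives the log2 difference ran from 0.30 to 0.48 for 208891_at, from 0.39 to 0.61 for 208892_s_at and from 0.26 to 0.41 for 208893_s_at.

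Promoters were taken from RefSeq (build GRCh38.p14, 250 bases before to 50 after the start of transcription), where 8 of the 10 genes had 11 entries. Those of DUSP6, EGR1 and JUNB are shown because these genes had the largest log2 differences above the reference. Capitals mark matches to the motifs searched on both strands, which were the AP-1 site (TGACTCA or TGAGTCA), the cyclic AMP response element (TGACGTCA), the TATA box (TATAAA), the ETS site (CCGGAAG), the EGR site (GCGGGGGCG or GCGTGGGCG) and the CArG box bound by serum response factor.
DUSP6, chr12:89352452-89352751, minus strand: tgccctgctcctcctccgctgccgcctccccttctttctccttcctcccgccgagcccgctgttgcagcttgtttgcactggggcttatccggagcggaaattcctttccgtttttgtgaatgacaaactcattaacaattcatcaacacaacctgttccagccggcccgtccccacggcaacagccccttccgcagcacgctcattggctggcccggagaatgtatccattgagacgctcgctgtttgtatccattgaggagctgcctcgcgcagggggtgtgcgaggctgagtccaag
EGR1, chr5:138465229-138465528, plus strand: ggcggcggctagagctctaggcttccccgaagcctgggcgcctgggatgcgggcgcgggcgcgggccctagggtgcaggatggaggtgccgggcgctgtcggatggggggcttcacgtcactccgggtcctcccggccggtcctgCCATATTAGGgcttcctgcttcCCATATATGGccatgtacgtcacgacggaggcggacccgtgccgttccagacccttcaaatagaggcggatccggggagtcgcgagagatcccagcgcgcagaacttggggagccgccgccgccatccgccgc
JUNB, chr19:12791236-12791535, plus strand: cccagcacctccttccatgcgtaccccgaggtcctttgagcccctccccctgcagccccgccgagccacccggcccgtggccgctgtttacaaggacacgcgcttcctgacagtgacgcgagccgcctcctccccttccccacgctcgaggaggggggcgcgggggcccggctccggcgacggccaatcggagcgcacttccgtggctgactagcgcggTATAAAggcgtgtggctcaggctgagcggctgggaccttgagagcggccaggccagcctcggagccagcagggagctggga

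The DUSP6 window held none of these motifs. The EGR1 window held 2 CArG boxes, which began 105 and 83 bases before the start, and 1.29% of the 35116 promoters in the table held such a box. The JUNB window held a TATA box 31 bases before the start. The same letters began 33 bases before the start in FOS and 30 before it in DUSP1. In ATF3 they began 230 bases before the start, in the second of its entries. Of all promoters, 11.5% held these letters. DUSP1 also held the cyclic AMP response element (1.85% of all promoters) and SPRY2 an EGR site (5.77%). No entry of the 8 genes held the AP-1 site (4.95% of all promoters) or the ETS site (10.3%). A match is a description of these letters and not of binding.

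The other phosphatases and the Sprouty gene did not pass. DUSP4 encodes a nuclear phosphatase that is induced by ERK and acts on ERK and JNK. Its brighter probe set (204015_s_at) gave 7.76, 7.72 and 7.66 with empty vector and 7.84, 8.03 and 7.98 with SH3GL2, so the SH3GL2 arrays lay above the others by a narrow margin. The log2 difference was 0.24 (SE 0.08, adjusted p = 0.155). Its other probe set had both means under the reference percentile and a log2 difference of 0.05 (adjusted p = 0.869). DUSP1, a nuclear phosphatase that acts mainly on p38 and JNK, gave on its first probe set (201041_s_at) 12.34, 12.23 and 12.44 against 12.26, 12.26 and 12.32. The groups overlapped, and the log2 difference of -0.06 had a 95% interval of -0.18 to 0.06, which leaves room for a change of up to 1.13-fold. The second DUSP1 probe set had -0.10 (adjusted p = 0.705). SPRY2, an inhibitor of receptor to RAS signaling, gave 9.48, 9.38 and 9.58 against 9.31, 9.19 and 9.56. These ranges overlapped too, with a log2 difference of -0.13 (SE 0.09, adjusted p = 0.589), so its sign was opposite to that of DUSP6.

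EGR1 encodes a zinc finger transcription factor that serum response factor and ERK switch on through ternary complex factors. On its brighter probe set (201694_s_at) the log2 signals were 8.22, 8.79 and 8.39 with empty vector and 8.76, 9.14 and 8.95 with SH3GL2. Empty vector replicate 2 stood higher than SH3GL2 replicate 1, so the groups overlapped by this array alone. The log2 difference was 0.48 (SE 0.13, 1.40-fold, 95% interval 0.20 to 0.77) and did not pass (adjusted p = 0.0613). It passed without empty vector replicate 2 (adjusted p = 0.00827) and among the probe sets brighter than the median (adjusted p = 0.0439). The second EGR1 probe set gave 6.60, 6.90 and 6.40 against 6.80, 7.19 and 7.05. It lay with both means under the reference percentile and had a log2 difference of 0.38 (adjusted p = 0.157), the same sign as the first.

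None of the AP-1 genes passed the test. JUNB, a JUN relative that often holds back JUN activity, gave 8.22, 7.90 and 8.08 with empty vector and 8.31, 8.35 and 8.52 with SH3GL2. All SH3GL2 arrays were above the others, and the log2 difference of 0.33 (SE 0.09, 1.25-fold, 95% interval 0.12 to 0.53) did not pass (adjusted p = 0.0817). It passed only among the probe sets brighter than the median (adjusted p = 0.0479). JUN, the main partner of FOS, was measured by 4 probe sets with log2 differences of -0.13 to -0.21, none of which passed (adjusted p = 0.226 to 0.407). Its brightest (201464_x_at) gave 10.56, 10.61 and 10.64 against 10.37, 10.61 and 10.45, where SH3GL2 replicate 2 sat at the level of the empty vector arrays. On 201465_s_at the signals were 8.22, 8.19 and 8.14 against 7.98, 8.09 and 7.87, with all SH3GL2 arrays lower. The mean of the 4 probe sets was -0.18 and did not pass either (adjusted p = 0.205 over 11963 genes).

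FOS, the founding member of the family, gave 5.10, 4.83 and 4.52 with empty vector and 4.95, 4.70 and 4.98 with SH3GL2. Both means were under the reference percentile and close to the reference median, so a fold change of this probe set says little about the transcript. FOSL1 encodes FRA1, a FOS relative abundant in basal breast cancer lines, and it gave 9.90, 9.81 and 10.01 against 9.90, 9.76 and 10.06. The means were equal, with a log2 difference of 0.00 (SE 0.08) and a 95% interval of -0.18 to 0.18, or up to 1.13-fold either way. ATF3, a stress-induced factor that pairs with JUN proteins, gave 8.59, 8.39 and 8.82 against 8.60, 8.32 and 8.82. Its arrays ran side by side in both groups, with a log2 difference of -0.02 (SE 0.13, 95% interval -0.29 to 0.25). Over all probe sets the median 95% interval reached 0.20 log2 units to either side of the estimate.

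**Figure D2:**
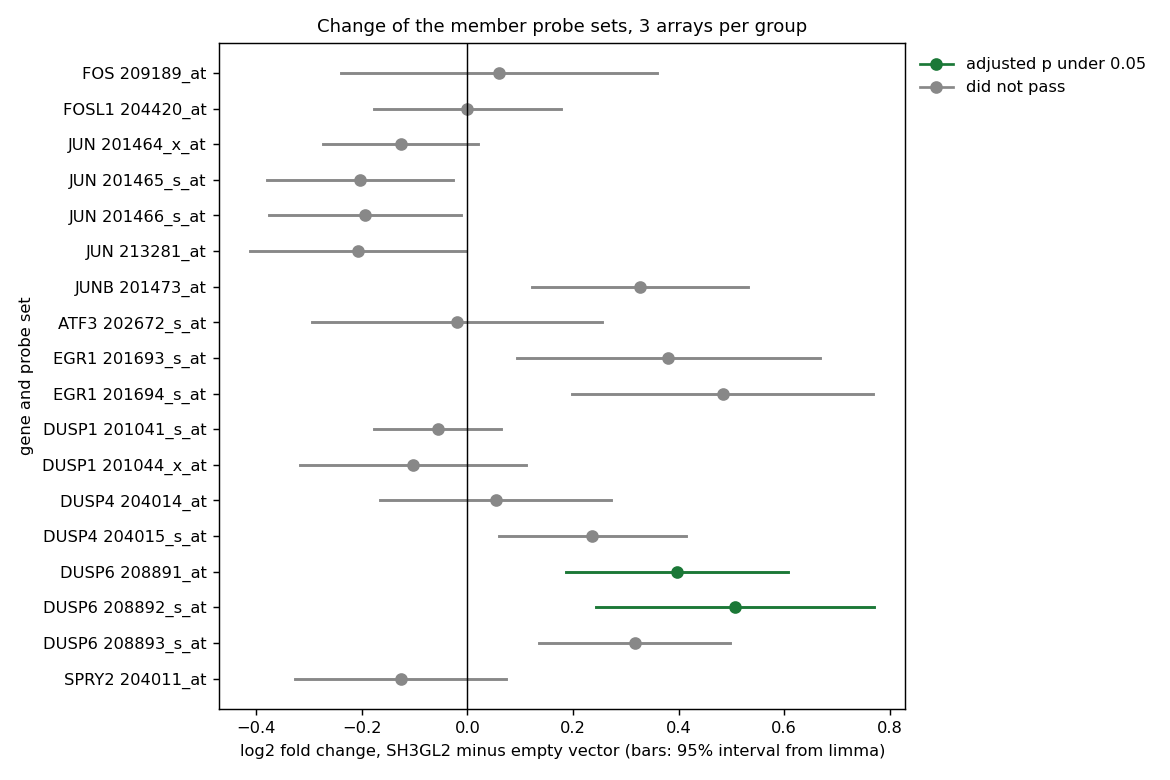
Log2 fold change (x axis, SH3GL2 minus empty vector) of the 18 member probe sets with 95% intervals from limma, 3 arrays per group. Green marks the 2 DUSP6 probe sets with an adjusted p under 0.05. The estimates of EGR1, JUNB and DUSP6 lie to the right of 0 and those of JUN to its left. The interval of JUN 201464_x_at crosses 0, as do those of FOSL1, ATF3 and FOS.

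The spread within a group had an order of its own. FOSL1, ATF3 and SPRY2 were lowest on the arrays numbered 2 and highest on those numbered 3 in both groups. Both EGR1 probe sets were highest on the arrays numbered 2 in both groups. Of the 18 member probe sets, 6 were highest on the arrays numbered 3 in both groups (33.3%, against 12.4% of all probe sets) and 5 were lowest on the arrays numbered 2 in both (27.8%, against 11.6%). Deviations from the group mean had the same sign on both arrays numbered 2 for 14 of the 18, beside 52.2% of all probe sets, and for 10 of the 18 on those numbered 1 and 3. Probe sets of 1 gene are not independent of each other, and these counts are a description without a test.

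**Figure D3:**
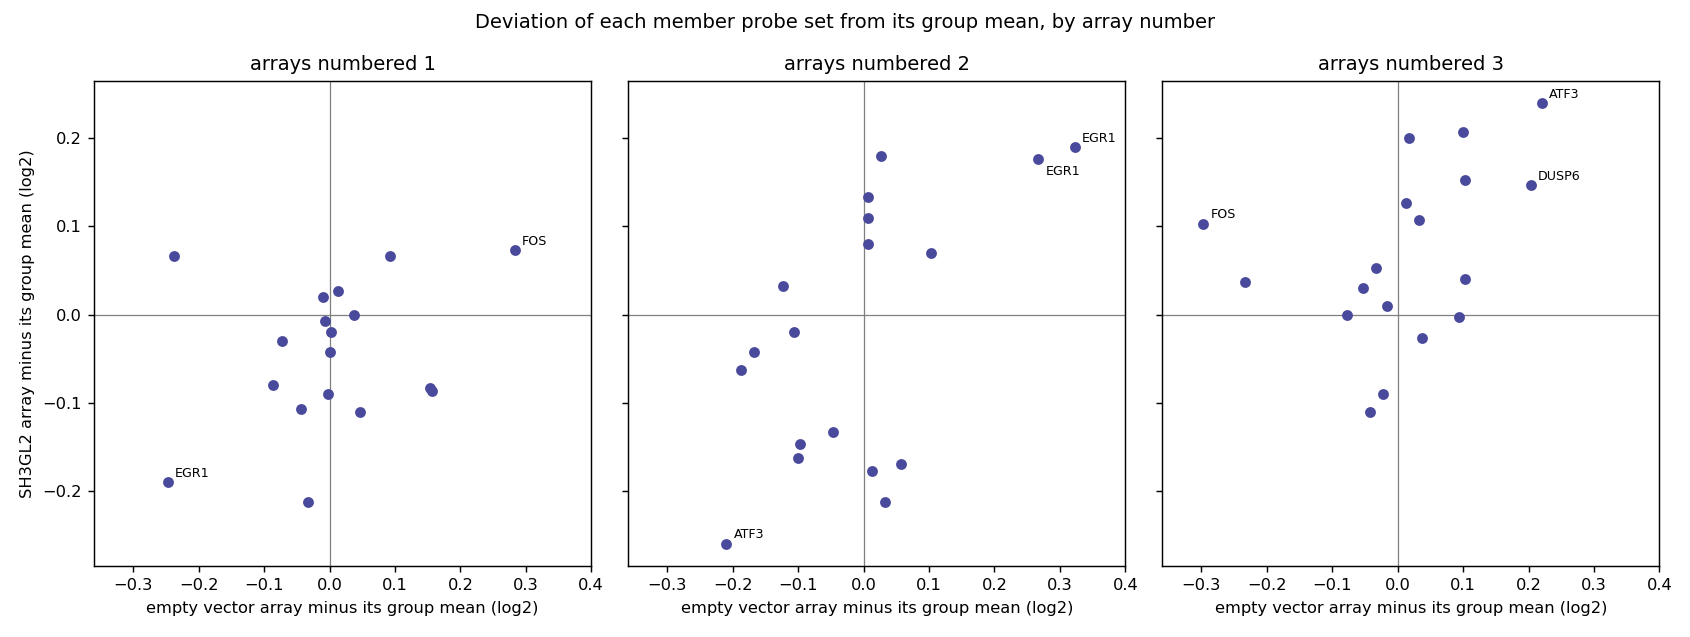
Deviation of the 18 member probe sets from their group mean in log2 units, for the empty vector array (x axis) and the SH3GL2 array (y axis) of the same number, with 1 panel per number. On the arrays numbered 2, EGR1 lies high on both axes and ATF3 low on both, and 14 of the 18 points share a sign.

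Around the 10 genes, 6 lists of the pathway were followed with 1 probe set per gene, the one with the highest mean. Of 147 other genes 124 were measured, of which 8 rose, 7 fell and 109 did not pass. These 15 are 12.1% of the genes, beside 4.9% of all 11963 genes called in either direction on 1 probe set each. The median log2 difference of the 124 was 0.02. Of the 124, 96 were above the reference, against 50.7% of all probe sets. That share is not a like background, because the 124 are the brightest probe set of each gene. The part of signal level in the share called was not tested. Leaving out 1 array moved the number that rose to between 2 and 10, with 4 without empty vector replicate 1, 2 without replicate 2, 5 without replicate 3 and 3 without SH3GL2 replicate 3, and the number that fell to between 5 and 7. All 15 calls were lost with a floor at the median of the reference and in the analysis of variance. The floor lay under every signal of these 15 genes and left their log2 differences unchanged. The genes DUSP5, TNFAIP3, BTG1, KLF6, EPHA4 and TNC, 6 of the 15, kept their call whichever array was left out.

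Among 15 other MAPK phosphatases, Sprouty and Spred genes, DUSP5, DUSP2 and DUSP7 rose, DUSP10 fell and 11 did not pass. DUSP5, a nuclear phosphatase that acts on ERK alone, had signals of 10.77, 10.72 and 10.99 with empty vector and 11.45, 11.16 and 11.49 with SH3GL2, a log2 difference of 0.54 (SE 0.09, adjusted p = 0.0035). The groups were clearly apart, with DUSP5 moving in the direction of DUSP6. DUSP2, another nuclear phosphatase, had a log2 difference of 0.42 (adjusted p = 0.0408), and the cytoplasmic ERK phosphatase DUSP7 one of 0.33 (adjusted p = 0.0172, 1 of its 2 probe sets). DUSP10, which acts on JNK and p38, had -0.45 (adjusted p = 0.0181, 1 of its 2 probe sets). The calls of DUSP2, DUSP7 and DUSP10 were each lost without some single arrays (adjusted p up to 0.161, 0.0966 and 0.0961). SPRY4, like SPRY2 a Sprouty inhibitor, had 0.19 and did not pass, nor did PHLDA1 with 0.05.

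Among 35 other immediate early genes, TNFAIP3, IER3 and LIF rose, KLF6, BTG1, SGK1 and GADD45B fell, and 28 did not pass. TNFAIP3, the A20 inhibitor of NF-κB signaling, gave 9.63, 9.72 and 9.63 against 10.22, 10.01 and 10.10, a log2 difference of 0.45 (adjusted p = 0.00194) on the brighter of its probe sets, both of which passed. The transcription factor KLF6 had -0.34 (adjusted p = 0.0073) and BTG1, an antiproliferative gene, -0.38 (adjusted p = 0.00977). SGK1, a kinase of the PI3K branch, had -0.47 (adjusted p = 0.00994), a call that was lost without empty vector replicate 2 (adjusted p = 0.0507). The calls of IER3 (log2 difference 0.26), the cytokine LIF (0.43) and GADD45B (-0.27) were lost without 4, 5 and 4 of the 6 arrays, left out one at a time. MYC had 0.15 and did not pass, and FOSB, the nearest relative of FOS, had both means under the reference percentile, as FOS did. The genes of this list that passed lay on both sides of 0.

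Among 17 transcripts known to depend on ERK, LIF and IER3 rose, EPHA4 and TNC fell, and 13 did not pass. Among these 13 was EMP1, though 1 of its 3 probe sets, not the one used here, was called lower. The receptor EPHA4 had a log2 difference of -0.52 (adjusted p = 0.00626) with both means under the reference percentile, and the matrix protein TNC one of -0.39 (adjusted p = 0.0049, 1 of its 2 probe sets). CCND1 (0.11), ETV4 (0.10) and ETV5 (0.18), which are often read beside DUSP6, did not pass. Of 29 genes of the cascade from RAS to ERK, RPS6KA1, a kinase under ERK, rose (log2 difference 0.33, adjusted p = 0.0483, lost without 5 of the 6 arrays) and 0 fell. At an unadjusted p under 0.05, 4 of the 29 were higher and 4 lower, and the analysis of variance called 0. HRAS (-0.03) and MAPK3, which encodes ERK1 (0.05), did not pass. Of 17 genes of the JNK and p38 cascades the stress kinase MAP3K5 rose (0.49, adjusted p = 0.01, lost without empty vector replicate 2) and 0 fell. At an unadjusted p under 0.05, 1 of the 17 was higher and 0 lower, and the analysis of variance called 0. Of 20 other AP-1, ATF and CREB factors 0 rose and 0 fell in limma on the probe set used. At an unadjusted p under 0.05 there were 1 higher and 1 lower, and the analysis of variance called 0. The 1 higher was BATF3 (log2 difference 0.31, adjusted p = 0.0536) and the 1 lower ATF4 (-0.12, adjusted p = 0.259), both named after their values were seen. CREB1 was called lower in limma on 1 of its 4 probe sets, not the one used here.

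**Figure D4:**
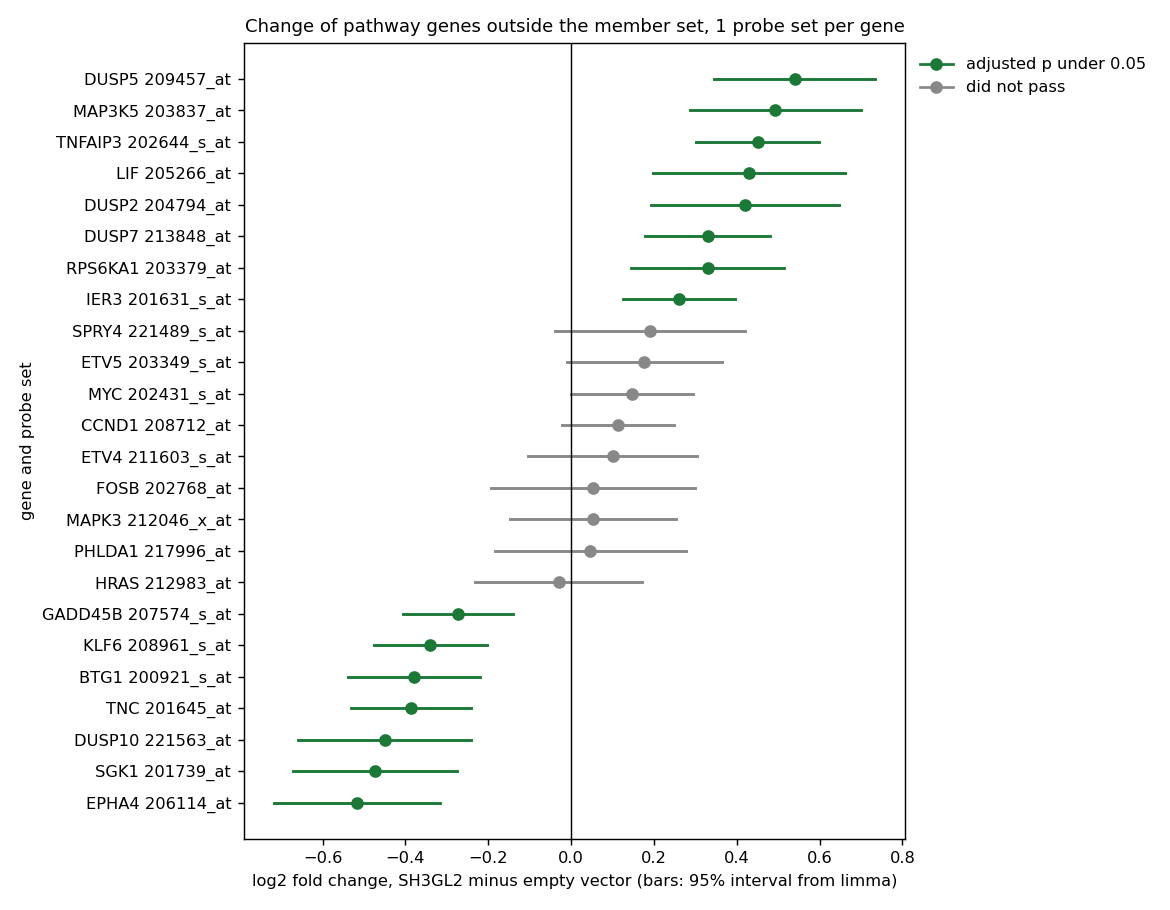
Log2 fold change (x axis, SH3GL2 minus empty vector) with 95% intervals from limma for the named pathway genes outside the 10, 1 probe set per gene and 3 arrays per group. Green marks an adjusted p under 0.05, with 8 genes on the right led by DUSP5 and 7 on the left led by EPHA4.

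The probe sets whose pattern lay nearest to that of DUSP6 208892_s_at, by the root mean square difference of centred log2 signals over the 6 arrays among 9846 candidates, were those of PDGFRA (0.0508), FRMD4B (0.0599) and DDX60 (0.0844). PDGFRA, a growth factor receptor, gave 6.80, 7.08 and 7.20 against 7.48, 7.28 and 7.71. Like DUSP6 it had its lowest signal on the first empty vector array and its highest on the third SH3GL2 array.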

How the data were processed

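Expression was measured on 6 Affymetrix GeneChip Human Genome arrays, 3 per group, and samples were grouped from their labels. The authors scanned the arrays with GCOS, the submitters' processing notes list MAS5, and the values they deposited are log2 signals (2.82 to 15.31). A log2 reading puts the brightest linear signal at 40623, whereas natural logarithms would put it at 4457060. Whether and how the arrays were scaled before deposit is not given in the sources used here.

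Values were used as deposited. Of 22277 probe sets 62 controls were left out. The annotation gave 1 symbol to 19064, several to 1043 and none to 2108 of the rest, and 0 symbols needed an update against RefSeq. The moderated two-sided test of limma 3.58.1 (R 4.3.3) compared the groups, with the variance prior following intensity. Its p-values were adjusted by Benjamini-Hochberg over the 22215 probe sets that remained, and 0.05 was the threshold. Errors beside means are SD. The number of arrays limits the precision, and for 50.7% of probe sets at least 1 group mean exceeded the reference percentile. The reference used 61 of 75 listed genes.

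Data were simulated for 22215 probe sets with independent noise, and 50 probe sets were changed at each fold. On these, limma recovered 6% of 1.2-fold, 58% of 1.5-fold and 96% of 2-fold changes and made 6 false calls. In the real data 926 probe sets were called, and the rates depend on how many change, so they may not carry over. The analysis of variance recovered 4%, 16% and 58% and made 3.

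The members and lists were chosen with earlier results of these data known. Named were all members, up to 4 called genes per list with the smallest adjusted p, 11 preset pathway genes (1 is not reported here) and the 3 nearest patterns. Alternatives were quantile normalization, centring on the median, an offset of 16, a floor at the reference median, the probe sets brighter than the median, eBayes without a trend or with a robust prior, an analysis of variance, a replicate block, an adjusted p under 0.01, leaving out each array, and gene means. No probe set named a member beside other symbols. Protein sequences were not used here. Plots used matplotlib 3.10.9 under Python 3.11.15.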

Additional observations from a re-analysis of the deposited data

How the results depend on the processing

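The number of member probe sets that rose, 2 of 18, was 0 with a floor at the median of the reference, with eBayes without an intensity trend, in the one-way analysis of variance and at an adjusted p under 0.01. It was 5 among the probe sets brighter than the median, where fewer were tested, and 0 to 3 with 1 array left out. The number that fell was 0 under every alternative run. Over all probe sets, 441 rose and 485 fell. With the floor these were 135 and 162, in the analysis of variance 33 and 44 and at an adjusted p under 0.01 191 and 256. Among the probe sets brighter than the median 445 rose and 444 fell, although fewer were tested. Without the trend 270 rose, and with 1 array left out 184 to 376 rose and 296 to 437 fell. Of the pathway genes, 8 rose and 7 fell. Both counts were 0 in the analysis of variance and with the floor. Without the trend 4 rose, at an adjusted p under 0.01 2 rose, and with 1 array left out 2 to 10 rose and 5 to 7 fell. No called value turned its direction. The floor lay under every signal of the called member and pathway probe sets. It could act on their calls only through the shared variance prior and adjustment. The cause of the other differences was not tested.

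Same-numbered arrays had residual correlations of -0.01, 0.13 and 0.15, and arrays of different numbers -0.16 to 0.02. The labels do not say whether the numbers pair the arrays. The main fit did not take them as pairs, and whether they are pairs was not tested. With a replicate block 4 member probe sets rose, the 3 of DUSP6, among them 208893_s_at (adjusted p = 0.0430), and EGR1 201694_s_at (adjusted p = 0.00273). Over all probe sets 506 rose and 573 fell with this block.

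The array-based signal limits what can be seen for 4 of the 18 member probe sets, which had both means under the reference percentile.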
